A study of Homo sapiens with 12 samples.

Results

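The MCM helicase and origin licensing genes are 10 genes, *MCM2*, *MCM3*, *MCM4*, *MCM5*, *MCM6*, *MCM7*, *MCM10*, *CDC6*, *CDT1* and *ORC1*, whose products make chromosomal origins ready for DNA replication or start the unwinding there. They were chosen by name from the 58302 genes of a table of raw RNA sequencing counts. All 10 were measured in every library, with no count under 59, and all 10 were among the 17849 genes tested after the filter on low counts. The cells were of NCI-H520, a line from a human lung squamous cell carcinoma. Its OV-L1-FGGY form expressed *L1-FGGY*, a chimeric transcript of a LINE-1 element and *FGGY*, from a stable lentiviral vector, and its OV-CTRL form carried the empty vector. The 12 libraries formed 4 groups of 3 by their labels. These were OV-L1-FGGY given DMSO at 0.2%, OV-L1-FGGY given 10 μM of the 12-LOX inhibitor ML355, OV-L1-FGGY given NVR, which inhibits reverse transcriptase, at 450 μM, and a control given DMSO at 0.2%, which was taken to be OV-CTRL. The medium was replaced 5 h after seeding, and the length of the treatment is not given. Nothing in the labels says whether replicates came from separate cultures, so that p-values measure the spread between these libraries only.

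In the G1 phase, the origin recognition complex, of which ORC1 is the subunit that comes and goes with the cell cycle, binds origins. CDC6 and CDT1 join it and load rings of the helicase subunits MCM2 to MCM7 onto the DNA, which licenses the origin. In S phase CDC45 and the GINS complex bind the rings, MCM10 helps the helicase to fire, and CDT1 is destroyed or held by its inhibitor geminin (*GMNN*), so that no origin is licensed again. The genes are classical targets of E2F transcription factors and are expressed in cells that divide.

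Because the licensing genes are known E2F targets, the bases around their starts were examined first. RefSeq promoter windows (GRCh38.p14), from 250 bases before to 50 bases after each start, were found for 8 of the 10 genes, with 3 windows for *MCM7* and 1 for each of the others. *MCM4* and *MCM5* had no entry. The E2F matches of *MCM7* were all in its first window. The E2F words TTTCCCGC, TTTCGCGC, TTTGCCGC and TTTGGCGC, searched on both strands, occurred in 6 of these 8 genes (*MCM2*, *MCM3*, *MCM6*, *MCM7*, *CDC6* and *CDT1*), compared with 3.31% of all 35116 promoter windows of this length and 4.63% of the 17548 windows of genes tested here. CCAAT was found in 6 of the 8 genes, compared with 34.6% of all windows and 34.3% of those of genes tested. The TATA word TATAAA, on either strand, was in none of the 8 genes, and 11.5% of all windows and 6.7% of those of genes tested held it. The CHR words TTTGAA and TTCGAA were in *MCM6* alone, and 16.4% of all windows and 12% of those of genes tested held them. A match is a match of letters and does not show that a factor binds there, and a window without one says nothing of the factor. The stretches with the matches are shown in 30 bases each, because 6 of the genes hold such an exact word and *MCM10* and *ORC1* do not. Capitals mark the E2F word or, where words on the 2 strands overlap, their union:
MCM2 (chr3:127598402-127598431, + strand): cgtgaaccactTTTCGCGCGAAAcctggtt
MCM3 (chr6:52284898-52284927, - strand): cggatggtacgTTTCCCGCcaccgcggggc
MCM3 (chr6:52284728-52284757, - strand): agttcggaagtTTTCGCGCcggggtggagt
MCM6 (chr2:135876577-135876606, - strand): agggctttgcaTTTGGCGCGAAAtcccttt
MCM6 (chr2:135876515-135876544, - strand): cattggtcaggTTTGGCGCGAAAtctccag
MCM7 (chr7:100101566-100101595, - strand): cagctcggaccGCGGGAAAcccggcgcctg
MCM7 (chr7:100101388-100101417, - strand): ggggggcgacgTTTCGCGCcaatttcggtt
CDC6 (chr17:40287875-40287904, + strand): ggccattcggaTTTGGCGCgagcgcggctg
CDT1 (chr16:88803743-88803772, + strand): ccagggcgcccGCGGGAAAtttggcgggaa
The same window of *MCM10* and of *ORC1* held no exact E2F word. The stretch of *ORC1* below reads ATTGGCGC, 1 letter from TTTGGCGC, and words with a mismatch were not searched. The CCAAT boxes of *MCM10* and *ORC1*, in capitals, are shown for comparison, with that of *ORC1* on the opposite strand:
MCM10 (chr10:13161429-13161458, + strand): aaagagggcgtCCAATgacgtaaaCCAATc
ORC1 (chr1:52404428-52404457, - strand): gggccacgccgATTGGcgcgaagttttctt

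**Figure D1:**
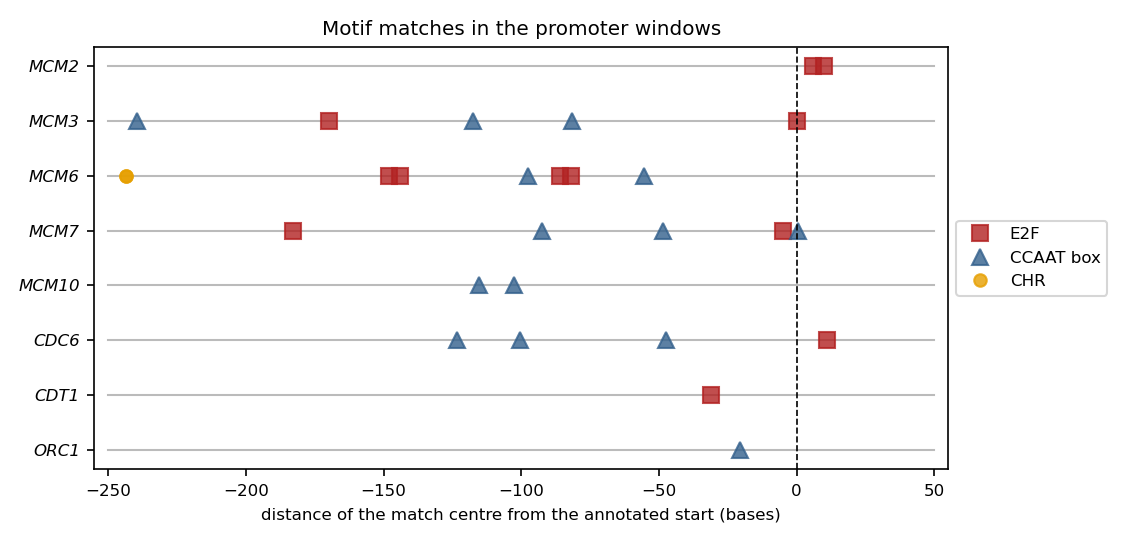
Matches to the E2F words (squares), CCAAT (triangles) and the CHR words (circle) in the first promoter window of each of 8 licensing genes, by the distance of the match centre from the annotated start in bases. Of the 8 rows, 6 hold a square, while *MCM10* and *ORC1* hold triangles only.

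The libraries held 16242082 to 27004768 counts. *FGGY* stood at 274 to 312 CPM (counts relative to the library's total, scaled with TMM factors) in OV-L1-FGGY in DMSO and 267 to 362 with ML355, but at 3.81 to 4.83 in the NVR-labelled libraries and 2.99 to 3.83 in OV-CTRL. *FGGY* thus went against the OV-L1-FGGY part of the NVR label, and the first principal component (78.9% of the variance) set the NVR-labelled libraries beside OV-CTRL. ML355 was therefore compared with OV-L1-FGGY in DMSO, and the NVR-labelled libraries with OV-CTRL in DMSO, each within its side of this split. Of 8 squamous markers, *KRT6A* and *DSG3* were at 0 in every library, and *KRT5* had at most 3 counts. *SOX2* had no count in OV-L1-FGGY in DMSO or ML355, 128 to 358 counts in the NVR-labelled libraries and 360 to 446 in OV-CTRL. *EPCAM* went the opposite way between the lines in DMSO, with 146 to 185 counts in OV-L1-FGGY and 33 to 48 in OV-CTRL, and so did *KRT14*, with 4 to 10 counts and none. Of the 5 squamous markers tested there, 3 were lower and 2 higher in OV-L1-FGGY. The summed level of the 8 was 8.86 to 12.1 CPM in OV-L1-FGGY in DMSO, 12.4 to 13.4 with ML355, 13.9 to 20.6 in the NVR-labelled libraries and 21.3 to 23.9 in OV-CTRL. All 13 markers of other cell types had a count in some library, and their sum was 110.5 to 128 CPM, 51.0 to 61.8, 43.6 to 55.5 and 29.9 to 37.5 in the same order of groups. The fibroblast marker *DCN* had 966 to 1266 counts in OV-L1-FGGY in DMSO, 193 to 282 with ML355 and none in the other libraries. The part of these markers in the results was not tested.

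The licensing genes were far lower in the NVR-labelled libraries than in OV-CTRL, all 10 of them, by 2.49-fold (*CDT1*) to 11-fold (*MCM10*). Of all genes tested, 15.3% were lower there. After ML355, 7 of the 10 were lower than in OV-L1-FGGY in DMSO by up to 1.97-fold, while *CDT1* was 2.53-fold higher. The shares of all genes tested were 23.5% lower and 21.3% higher. Between the lines in DMSO, 6 of the 10 were higher in OV-L1-FGGY and *MCM7* was lower, where 32.5% of all genes tested were higher and 36.2% lower. In bulk RNA, fewer cells that express a gene and less of its RNA in each cell cannot be told apart.

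**Figure D2:**
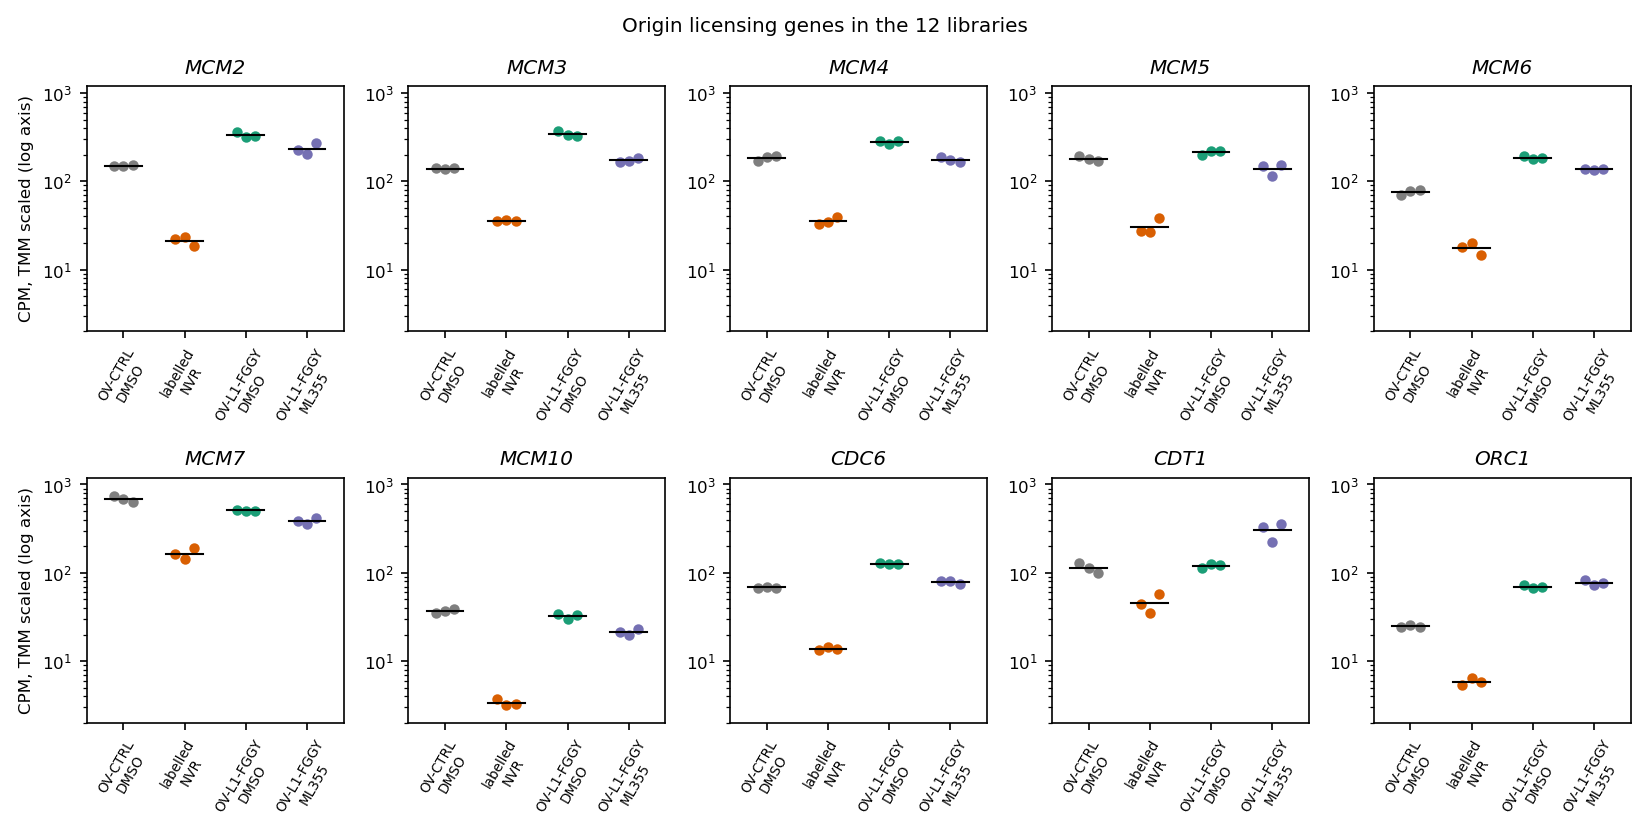
Level of each licensing gene in every library (points, CPM with TMM scaling, log axis) with the group mean (line). The NVR-labelled libraries are the lowest group in all 10 panels, and *CDT1* is the panel in which ML355 is the highest group by the widest margin.

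ORC1 is the largest subunit of the origin recognition complex. Its gene was at 72.8, 66.7 and 69.7 CPM in replicates 1 to 3 of OV-L1-FGGY in DMSO and at 82.8, 73.6 and 76.2 CPM with ML355. It was at 24.1, 25.8 and 24.3 CPM in OV-CTRL and at 5.30, 6.37 and 5.76 CPM in the NVR-labelled libraries. *ORC1* was the only gene of the 10 besides *CDT1* whose ML355 libraries all lay above those with DMSO, but the difference did not pass the test (log2 fold change 0.15, standard error, SE, 0.10, edgeR adjusted p = 0.213). Its fall in the NVR-labelled libraries did, with a log2 fold change of -2.08 (SE 0.11, edgeR adjusted p = 5.52e-09).

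CDC6 is the ATPase that joins the origin recognition complex to load the helicase. *CDC6* was at 128, 127 and 125 CPM in OV-L1-FGGY in DMSO. It was at 80.2, 80.6 and 75.0 CPM with ML355, and no library overlapped with DMSO (log2 fold change -0.69, SE 0.09, edgeR adjusted p = 9.31e-06). Its level was 67.5, 69.4 and 68.2 CPM in OV-CTRL and 13.5, 14.4 and 13.6 CPM in the NVR-labelled libraries. The fall of *CDC6* there was 4.93-fold (log2 fold change -2.30, SE 0.10, edgeR adjusted p = 3.68e-10).

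CDT1 is the loading factor that works with CDC6. *CDT1* was at 114, 124 and 122 CPM in OV-L1-FGGY in DMSO, and at 330, 224 and 357 CPM with ML355. The 3 ML355 libraries were all above the 3 DMSO libraries and differed more among themselves, with replicate 2 the lowest. The log2 fold change of *CDT1* was 1.34 (SE 0.18, edgeR adjusted p = 1.41e-05), and 89.7% of the genes tested had a lower one. *CDT1* was at 131, 114 and 98.4 CPM in OV-CTRL and at 44.7, 35.1 and 58.3 CPM in the NVR-labelled libraries, which did not overlap. There it fell by 1.32 on the log2 scale (SE 0.19, edgeR adjusted p = 4.38e-05), the smallest fall of the 10 genes. *CDT1* was thus the gene that ML355 and the NVR label moved in opposite directions.

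MCM2 to MCM7 form the ring of the replicative helicase. *MCM2* was at 363, 317 and 322 CPM in OV-L1-FGGY in DMSO and 226, 203 and 274 CPM with ML355. It was at 149, 149 and 152 CPM in OV-CTRL and 22.3, 23.2 and 18.4 CPM in the NVR-labelled libraries. No group of *MCM2* overlapped another, and its fall in the NVR-labelled libraries, 7.03-fold, was the largest of the 6 ring genes. *MCM3* was at 367, 333 and 325 CPM in OV-L1-FGGY in DMSO and 165, 172 and 182 CPM with ML355. *MCM3* was at 140, 137 and 140.0 CPM in OV-CTRL and 35.9, 36.5 and 35.3 CPM in the NVR-labelled libraries. *MCM3* fell most of the 10 genes after ML355 (1.97-fold) and least of the ring genes in the NVR-labelled libraries (3.88-fold).

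*MCM4* was at 282, 263 and 287 CPM in OV-L1-FGGY in DMSO and 187, 175 and 164 CPM with ML355, and at 171, 190 and 195 CPM in OV-CTRL and 32.7, 34.9 and 39.9 CPM in the NVR-labelled libraries. The ML355 and the OV-CTRL libraries of *MCM4* covered overlapping ranges. *MCM5* was at 201, 220 and 221 CPM in OV-L1-FGGY in DMSO and 150, 114 and 153 CPM with ML355, with replicate 2 the lowest. *MCM5* was at 195, 180 and 169 CPM in OV-CTRL and 27.6, 26.5 and 38.0 CPM in the NVR-labelled libraries. Its groups did not overlap, although OV-L1-FGGY and OV-CTRL in DMSO came close.

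*MCM6* was at 192, 177 and 185 CPM in OV-L1-FGGY in DMSO and 138, 134 and 140 CPM with ML355. It was at 70.5, 77.2 and 80.5 CPM in OV-CTRL and 18.1, 20.1 and 14.6 CPM in the NVR-labelled libraries. *MCM6* therefore differed between all 4 groups without overlap. The same held for *MCM2*, *MCM3*, *MCM5*, *MCM7*, *MCM10*, *CDC6* and *ORC1*. The share of all genes for which it held was not computed, so it is not read as a trait of these genes. Between the lines in DMSO alone, 36.2% of all genes tested were called lower and 32.5% higher. *MCM7* was at 517, 503 and 505 CPM in OV-L1-FGGY in DMSO and 390, 355 and 412 CPM with ML355. *MCM7* was at 745, 690 and 626 CPM in OV-CTRL and 161, 143 and 190 CPM in the NVR-labelled libraries. It was the only gene of the 10 that was lower in OV-L1-FGGY than in OV-CTRL by the test.

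MCM10 is not a subunit of the ring but binds it when the origin fires. *MCM10* was at 34.1, 30.1 and 33.7 CPM in OV-L1-FGGY in DMSO and 21.4, 19.98 and 23.4 CPM with ML355. It was at 35.2, 37.3 and 39.4 CPM in OV-CTRL and 3.75, 3.18 and 3.24 CPM in the NVR-labelled libraries. With a log2 fold change of -3.46 (SE 0.13, edgeR adjusted p = 1.72e-10), it fell most of the 10 genes in the NVR-labelled libraries, and 37 of the 17849 genes tested had a lower log2 fold change.

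To see how the 12-LOX inhibitor changed the set, ML355 was compared with DMSO in OV-L1-FGGY. The genes *MCM2*, *MCM3*, *MCM4*, *MCM5*, *MCM6*, *MCM10* and *CDC6* were lower, 7 of 10, and 23.5% of all genes tested were lower. *CDT1* was higher, 1 of 10, and 21.3% of all genes tested were higher. The log2 fold changes of the 7 ran from -0.98 (*MCM3*, SE 0.09, edgeR adjusted p = 3.01e-07) to -0.43 (*MCM6*, SE 0.11, edgeR adjusted p = 0.00397). *MCM7*, at -0.40 (SE 0.12, edgeR adjusted p = 0.0107), missed the threshold of 0.01, and the adjusted p of *MCM7* was 0.00303 with DESeq2 and 0.00699 with limma voom. The median of the 10 was -0.55, beside 0.00 for all genes tested. *MCM2* was not called without OV-L1-FGGY replicate 1 of DMSO or without replicate 1 or 2 of ML355, with edgeR adjusted p up to 0.0138. *MCM6* was not called without replicate 1 or 3 of DMSO or without any 1 replicate of ML355, with edgeR adjusted p up to 0.018. None of the 7 lower genes reached a 2-fold change.

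For the reverse transcriptase inhibitor, the NVR-labelled libraries were compared with OV-CTRL in DMSO. All 10 licensing genes were lower and none was higher. Of all genes tested, 15.3% were lower and 14.5% were higher, or 18% and 10.2% with scaling by library size alone. The share of all genes that were lower was 9.84% without NVR replicate 1, and the share higher was 8.66% without OV-CTRL replicate 2 and 8.77% without OV-CTRL replicate 3. The median log2 fold change of the 10 was -2.21, beside 0.00 for all genes tested. The log2 fold change was -2.81 for *MCM2* (SE 0.13, edgeR adjusted p = 9.99e-10), -2.56 for *MCM5* (SE 0.15, edgeR adjusted p = 8.92e-09) and -2.37 for *MCM4* (SE 0.11, edgeR adjusted p = 9.99e-10). For *MCM6* the log2 fold change was -2.11, for *MCM7* -2.06 and for *MCM3* -1.96. Apart from *CDT1*, with 5.74% of the genes tested below it, each of the 10 had a lower log2 fold change than all but 0.207% to 1.94% of the genes tested. The 10 calls held under every alternative of fit, scaling or filter and without any 1 library. Against OV-L1-FGGY in DMSO, the baseline that the label names, the same libraries gave log2 fold changes of -3.97 for *MCM2*, -3.58 for *ORC1*, -3.39 for *MCM6* and -1.39 for *CDT1*, with all 10 called lower, where 35.4% of all genes tested were lower and 38.2% higher. The comparison with OV-L1-FGGY crosses the split of the libraries, and its fold changes share libraries with those above.

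The effects of the inhibitors, each within its side, were then set against each other in the same fit. Among the licensing genes, 10 of 10 were called lower for the NVR label than for ML355 (edgeR adjusted p under 0.01), and of all genes tested 17.3% were. No licensing gene was called the other way, and 16.8% of all genes were. The difference was widest for *MCM10* (-2.86, SE 0.17, edgeR adjusted p = 7.68e-09) and *CDT1* (-2.65, SE 0.26, edgeR adjusted p = 8.22e-07). It was narrowest for *MCM3* (-0.97, SE 0.13, edgeR adjusted p = 2.22e-05), and all genes tested had a median of 0.02. The inhibitors were given in different doses, and the NVR label and the side of the split cannot be told apart.

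**Figure D3:**
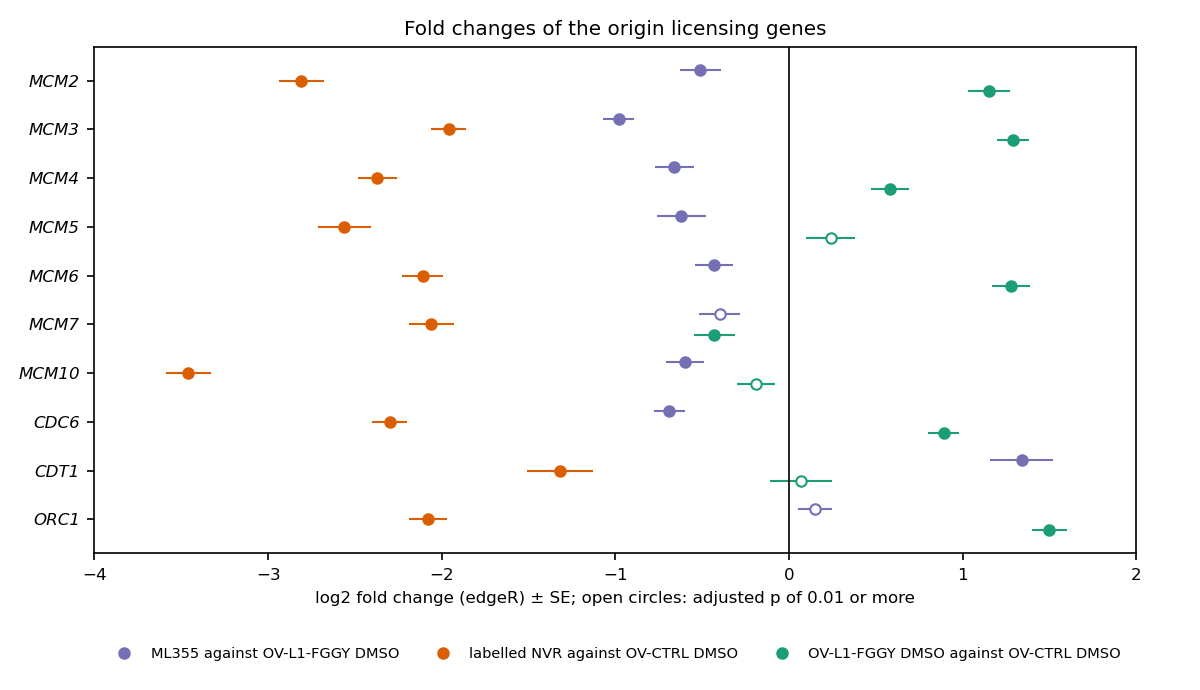
Log2 fold change of each licensing gene with its standard error in 3 comparisons, with filled circles for an edgeR adjusted p under 0.01. The points of the NVR label lie between -3.46 and -1.32, those of ML355 between -0.98 and 1.34, with *CDT1* alone called to the right of 0.

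For the lines without an inhibitor, OV-L1-FGGY was compared with OV-CTRL in DMSO. Of the licensing genes, *ORC1* (log2 fold change 1.5, SE 0.10, edgeR adjusted p = 1.84e-09), *MCM3* (1.29), *MCM6* (1.28), *MCM2* (1.15), *CDC6* (0.89) and *MCM4* (0.58) were higher, 6 of 10, and of all genes tested 32.5% were higher. *MCM7* was lower (-0.43, SE 0.12, edgeR adjusted p = 0.00389), 1 of 10, and of all genes tested 36.2% were lower. *MCM5* (0.24), *CDT1* (0.07) and *MCM10* (-0.19) did not pass the test. The median of the 10 was 0.74, beside -0.11 for all genes tested. The call of *MCM7* was lost without any 1 of the 3 OV-L1-FGGY libraries in DMSO or without OV-CTRL replicate 1 or 2, with edgeR adjusted p of up to 0.02. This comparison shares its libraries with the comparisons of the inhibitors, and *L1-FGGY* and the other differences between the sides of the split, such as *SOX2*, cannot be told apart.

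Levels were compared between genes as CPM per kilobase of merged exons. *MCM7* was first in OV-L1-FGGY in DMSO at 102 ± 1.51 CPM per kilobase (SD, n = 3), in OV-CTRL at 138 ± 12.0 (SD, n = 3) and in the NVR-labelled libraries at 33.2 ± 4.76 (SD, n = 3). With ML355, *CDT1* came first at 110.0 ± 25.6 CPM per kilobase (SD, n = 3) and *MCM7* followed at 77.8 ± 5.82 (SD, n = 3), with ranges of 81.0 to 130 and 71.6 to 83.2 that overlap. *MCM10* was last in all 4 groups, from 0.622 ± 0.0576 CPM per kilobase (SD, n = 3) in the NVR-labelled libraries to 6.83 ± 0.384 (SD, n = 3) in OV-CTRL. In OV-L1-FGGY in DMSO the order after *MCM7* was *MCM3* (93.7 ± 6.07), *MCM2* (70.8 ± 5.36), *MCM6* (44.7 ± 1.81) and *CDT1* (43.5 ± 2.08). *MCM7* and *MCM3* lay apart by a small gap, with ranges of 101 to 104 and 89.1 to 101, while the ranges of *MCM6* (42.8 to 46.5) and *CDT1* (41.1 to 45.1) overlapped. *MCM5* and *MCM4* followed at 29.4 and 28.2. Merged exons depend on the transcripts annotated. With the length of the canonical transcript instead, a choice made after the values were seen, *MCM7* was first in all 4 groups (156 CPM per kilobase with ML355, where *CDT1* was at 114), and *MCM10* was last in all but OV-CTRL, where *ORC1* was. The canonical length also put *MCM4* (68.3 CPM per kilobase) and *MCM5* (61.9) above *MCM6* (49.2) and *CDT1* (45.1) in OV-L1-FGGY in DMSO.

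Because the ring holds MCM2 to MCM7 together, the share of each in the sum of the 6 was taken from the same CPM per kilobase. *MCM7* made up 27.8% ± 0.579 (SD, n = 3) of the sum in OV-L1-FGGY in DMSO and 31.7% ± 0.346 (SD, n = 3) with ML355, but 51.1% ± 2.35 (SD, n = 3) in OV-CTRL and 55.5% ± 3.76 (SD, n = 3) in the NVR-labelled libraries. The share of *MCM3* was 25.4% ± 0.828 (SD, n = 3) in OV-L1-FGGY in DMSO, 19.4% ± 1.17 with ML355, 14.1% ± 0.598 in OV-CTRL and 16.6% ± 1.48 in the NVR-labelled libraries. *MCM7* thus had the largest share in every group, and the group ranges of its share did not overlap between the sides of the split. On the OV-CTRL side, the share of *MCM3* was higher in the NVR-labelled libraries, at 14.99% to 17.9% against 13.7% to 14.8%, and on the other side it was lower with ML355. *MCM2* had 11.8% ± 0.614 (SD, n = 3) in OV-CTRL and 7.64% ± 1.44 in the NVR-labelled libraries, and its ranges of 11.2% to 12.5% and 6.03% to 8.83% did not overlap. *MCM4* and *MCM5* had the most even shares, between 6.09% and 9.20% in the 4 group means. The canonical transcript length set the share of *MCM7* at 34.7% in OV-L1-FGGY in DMSO and 57.2% in OV-CTRL. Summed as CPM, the 6 messages came to 1860 ± 55.6 (SD, n = 3) in OV-L1-FGGY in DMSO, 1245 ± 86.0 with ML355, 1418 ± 54.2 in OV-CTRL and 306 ± 26.9 in the NVR-labelled libraries.

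The count of *CDT1* was also set against that of *GMNN*, which encodes geminin, the inhibitor of CDT1. This ratio was chosen after the values were seen and is a description. There were 0.940, 1.04 and 1.12 counts of *CDT1* for each count of *GMNN* in OV-L1-FGGY in DMSO and 3.31, 2.54 and 4.16 with ML355. The ratio was 3.15, 3.25 and 2.60 in OV-CTRL and 2.43, 2.22 and 3.82 in the NVR-labelled libraries. All 3 libraries of OV-L1-FGGY in DMSO thus lay below the 9 others, whose groups overlapped. *GMNN* itself had a log2 fold change of -0.36 after ML355, which did not pass the test (edgeR adjusted p = 0.0112), and fell by 1.21 in the NVR-labelled libraries (edgeR adjusted p = 9.07e-07). Between the lines in DMSO, *GMNN* was 3.06-fold higher in OV-L1-FGGY (log2 fold change 1.61, edgeR adjusted p = 1.91e-09). *CDT1* did not pass the test there (0.07).

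**Figure D4:**
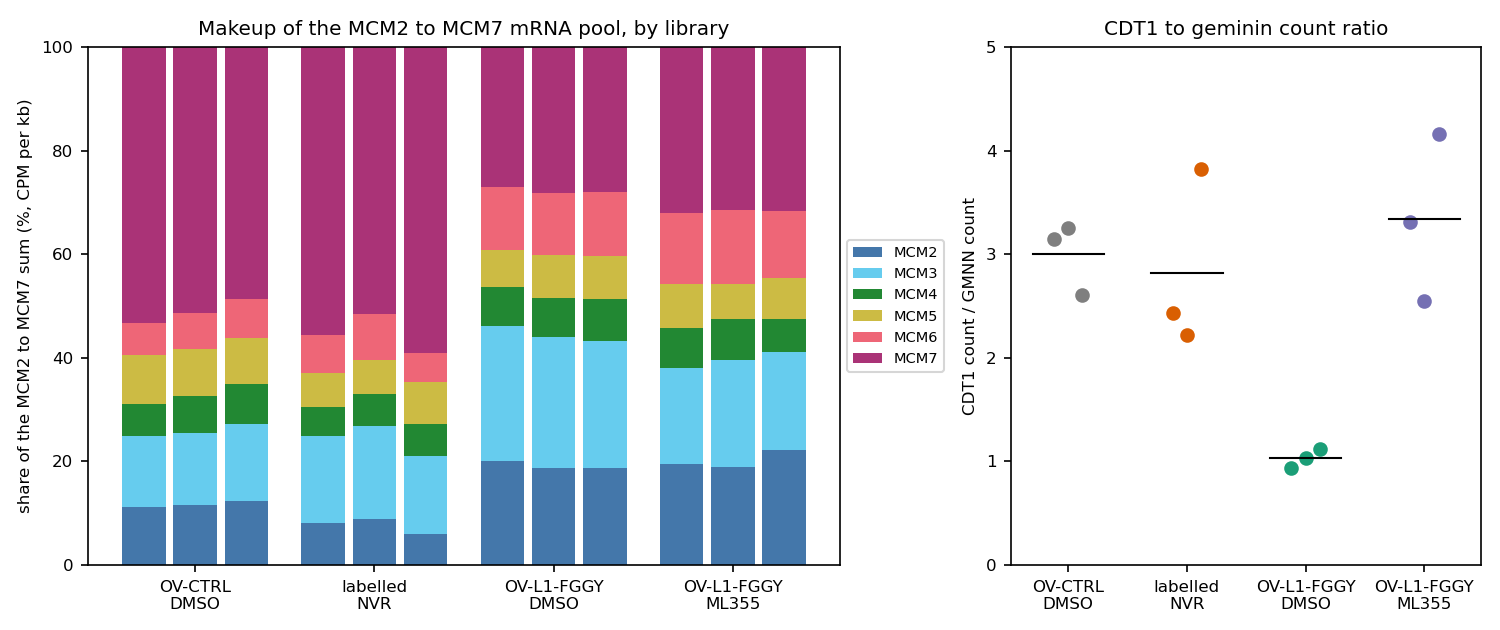
Left, share of each gene in the sum of *MCM2* to *MCM7* (CPM per kilobase, in percent) for each of the 12 libraries. Right, counts of *CDT1* per count of *GMNN* in each library (points) with group means (lines). *MCM7* takes 48.7% to 59.2% in OV-CTRL and the NVR-labelled libraries and at most 32.1% in OV-L1-FGGY in DMSO or ML355, and the ratio is 0.940 to 1.12 in OV-L1-FGGY in DMSO and 2.22 or more in the other groups.

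Of the 10 genes, 4 have a protein-coding gene on the opposite strand that starts within 1000 bases. *MCM4* and *PRKDC*, the catalytic subunit of DNA-dependent protein kinase, start 7 bases apart. *PRKDC* was lower after ML355 (log2 fold change -0.98, edgeR adjusted p = 9.55e-05) and in the NVR-labelled libraries (-1.21, edgeR adjusted p = 3.13e-05), where *MCM4* fell by 2.37. *TPRA1*, 143 bases from *MCM2*, was higher in both (0.85 and 0.85, edgeR adjusted p = 0.000403 and 0.000792), where *MCM2* was lower. *PRPF38A*, a splicing factor gene 179 bases from *ORC1*, was higher after ML355 (0.59, edgeR adjusted p = 0.000185) and had a log2 fold change of -0.01 in the NVR-labelled libraries (edgeR adjusted p = 0.962). *AP4M1*, 391 bases from *MCM7*, passed the test in neither (-0.10 and -0.15, edgeR adjusted p = 0.617 and 0.442). The neighbours of *MCM2*, *MCM7* and *ORC1* thus did not fall with them under the NVR label. *AP4M1* shares 392 exon bases with *MCM7* on the opposite strand (7.9% of those of *MCM7*) and had at most 426 counts, and *MIR93*, a microRNA inside *MCM7*, had at most 4. An antisense lncRNA, not analysed here, shares 1113 exon bases with *MCM2* (23.6%). Whether reads were counted by strand is not given, so that reads of these pairs cannot be told apart.

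The rest of the licensing machinery and the genes around it were taken from lists, for which the median of all genes tested was 0.00 after ML355 and 0.00 under the NVR label. As above, 23.5% of all genes tested were lower and 21.3% higher after ML355, and 15.3% were lower and 14.5% higher under the NVR label. Of 11 other licensing and origin recognition genes, 2 were lower and 3 higher after ML355 (18.2% and 27.3%, near the shares of all genes, median log2 fold change 0.02), and 8 were lower (72.7%) and 1 higher in the NVR-labelled libraries (median -0.69). *ORC6*, the smallest subunit of the origin recognition complex, went from 42.2 ± 4.11 CPM (SD, n = 3) in OV-L1-FGGY in DMSO to 74.2 ± 9.84 with ML355 (log2 fold change 0.81, edgeR adjusted p = 2.94e-05), and fell by 1.5 in the NVR-labelled libraries (edgeR adjusted p = 2.4e-07). *KAT7*, the acetyltransferase that acts with CDT1 at origins, rose by 0.82 on the log2 scale after ML355 (edgeR adjusted p = 1.69e-05) and fell by 0.69 under the NVR label (edgeR adjusted p = 0.000215). *ORC6* and *KAT7* thus changed in the same directions as *CDT1*. *MCM8*, a relative of the ring genes that acts in recombination, had a log2 fold change of 0.01 after ML355 (edgeR adjusted p = 0.963) and fell by 1.6 under the NVR label (edgeR adjusted p = 4.01e-08).

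Helicase activation is the step at which the loaded ring becomes active. Of 14 genes of this list, 8 were lower (57.1%, and 23.5% of all genes) and 2 higher after ML355 (median log2 fold change -0.55), and 13 were lower (92.9%, and 15.3% of all genes) and none higher in the NVR-labelled libraries (median -1.58). *GINS4*, a GINS subunit, fell by 1.44 on the log2 scale after ML355 (edgeR adjusted p = 2.56e-07) and fell by 1.83 under the NVR label (edgeR adjusted p = 6.17e-08). *CDC45*, the partner of the ring in the active helicase, had log2 fold changes of -1.0 (edgeR adjusted p = 1.69e-06) and -2.58 (edgeR adjusted p = 9.21e-10). *GINS2* fell by 2.75 under the NVR label (edgeR adjusted p = 5.68e-09). *DBF4*, the activating subunit of the CDC7 kinase that phosphorylates the ring, rose after ML355 by 1.16 on the log2 scale (edgeR adjusted p = 4.78e-07).

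Of 13 genes for the turnover and cyclin control of CDC6 and CDT1, 4 were lower and 3 higher after ML355 (30.8% and 23.1%, near the 23.5% and 21.3% of all genes, median -0.26), and 9 were lower (69.2%, and 15.3% of all genes) and none higher in the NVR-labelled libraries (median -0.74). *DTL* encodes the adaptor by which CDT1 is marked for destruction in S phase. *DTL* fell from 42.0 ± 3.23 CPM (SD, n = 3) in OV-CTRL to 6.95 ± 0.470 in the NVR-labelled libraries (log2 fold change -2.60, edgeR adjusted p = 9.99e-10), and *CDC25A*, a phosphatase that activates CDKs, fell by 2.53 (edgeR adjusted p = 2.01e-08). *CCNA2*, the gene of cyclin A, rose by 1.29 on the log2 scale after ML355 (edgeR adjusted p = 8.08e-07), and *CCNF*, whose product marks CDC6 for destruction, fell by 0.78 (edgeR adjusted p = 1.79e-05).

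Among 19 E2F, RB and MuvB transcription factor genes, 9 were lower (47.4%, and 23.5% of all genes) and 2 higher after ML355 (median -0.39), and 13 were lower (68.4%, and 15.3% of all genes) and none higher under the NVR label (median -0.96). *E2F3* fell by 1.41 on the log2 scale after ML355 (edgeR adjusted p = 5.02e-08) and *TFDP1*, the DNA-binding partner of E2F proteins, fell by 1.03 (edgeR adjusted p = 6.49e-07). In the NVR-labelled libraries, *E2F1* and *E2F2* were lower, with log2 fold changes of -2.42 and -3.36 (edgeR adjusted p = 1.63e-08 and 6.78e-09). *E2F7* and *E2F8* were lower there too, at -2.31 and -2.62 (edgeR adjusted p = 5.31e-08 and 2.63e-06). After ML355, *E2F7* was higher (0.47, edgeR adjusted p = 0.00809) and *E2F8* was lower (-1.51, edgeR adjusted p = 9.47e-05).

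Of 26 replication fork genes, 11 were lower (42.3%, and 23.5% of all genes) and 2 higher after ML355 (median -0.18), and 22 were lower (84.6%, and 15.3% of all genes) and 1 higher in the NVR-labelled libraries (median -1.23). *POLE*, the catalytic subunit of the leading-strand polymerase, fell by 1.58 after ML355 (edgeR adjusted p = 5.41e-09). *POLA1*, of the primase complex, fell by 1.49 after ML355 and fell by 2.11 under the NVR label (edgeR adjusted p = 3.61e-08 and 9.22e-09), and *POLA2* fell by 1.98 under the NVR label (edgeR adjusted p = 9.94e-09). Of the 15 mitosis genes, 2 were lower and 8 higher (53.3%, and 21.3% of all genes) after ML355 (median 0.46), while all 15 were lower under the NVR label (median -1.11). *CDC20*, the activator of the anaphase-promoting complex, rose by 1.85 on the log2 scale after ML355 (edgeR adjusted p = 1.81e-08), and *CDK1*, the mitotic kinase, by 1.07 (edgeR adjusted p = 2.3e-07). *CDK1* fell by 1.15 and *MKI67*, a marker of dividing cells, fell by 1.45 under the NVR label (edgeR adjusted p = 3.91e-07 and 7.02e-07). The share of cells in each phase was not measured.

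**Figure D5:**
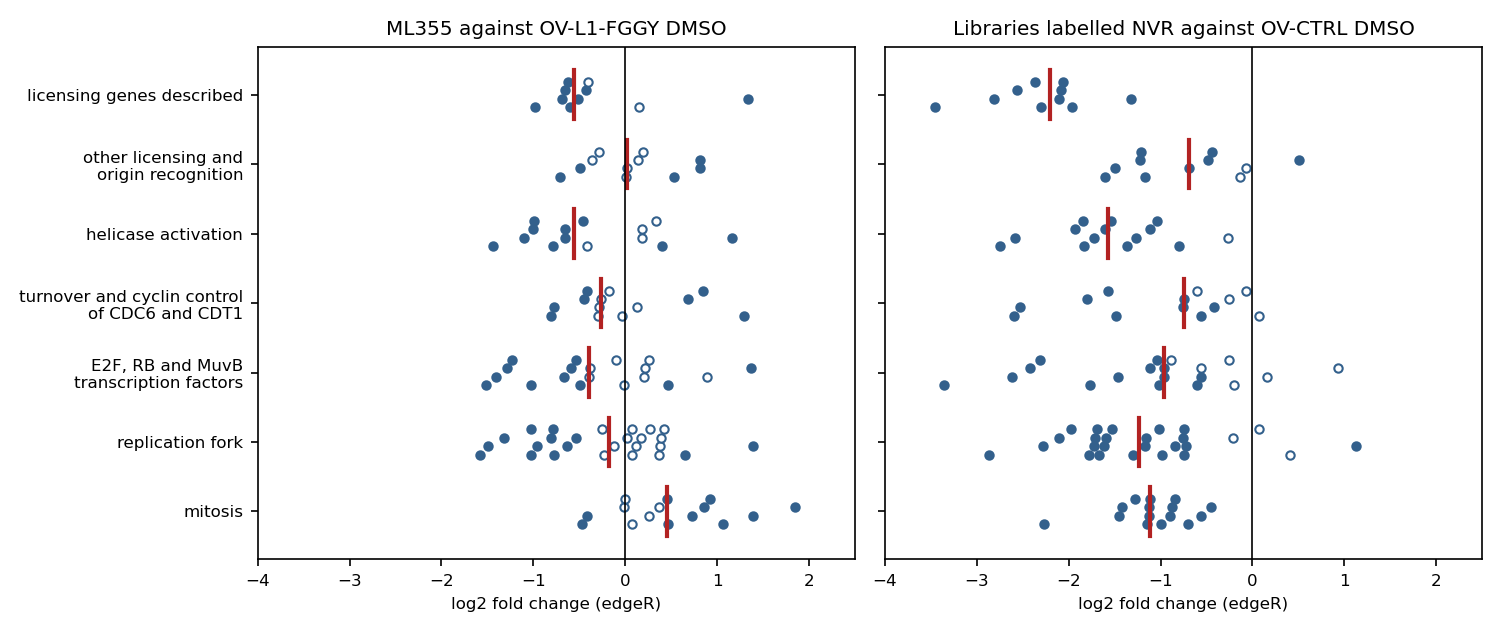
Log2 fold change (edgeR) of every gene of 7 lists after ML355 (left) and in the NVR-labelled libraries (right), with filled circles for an adjusted p under 0.01 and red lines at the list medians. On the left the licensing and helicase activation lists have medians of -0.55 and the mitosis list one of 0.46, and on the right all 7 medians lie below 0.

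The genes whose levels most resembled the mean of the 10 were sought among 12569 other protein-coding genes whose mean was 1 CPM or more. Likeness was the root mean square difference of log2 CPM over the 12 libraries, centred within each side of the split. Among the closest were *ARHGEF16* (0.137), *DTL* (0.146), *PDGFB* (0.159) and *FANCA* (0.166). *E2F1* (0.167), *SYDE1* (0.174), *GINS2* (0.194), *RFC3* (0.200) and *GASK1B* (0.210) came after them. Of the licensing genes, *MCM7* lay closest to their mean (0.119) and *CDT1* farthest (0.704), with *MCM10* next at 0.414. The mean of the 10 includes each of these genes itself.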

How the data were processed

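The 12 RNA libraries of NCI-H520 cells formed 4 groups of 3 by the labels. According to the methods and labels, STAR 2.5.3a (hg38) and HTSeq 0.11.2 were used by the authors, and the deposited values are raw counts per Ensembl gene. The annotation, strand setting and handling of reads with several positions are not given in the sources used here, and the labels name another library kit than the methods. The 6 columns named only NVR or DMSO with a number were matched to samples by their titles. Symbols and exons came from GENCODE 44 (57532 identifiers matched).

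In edgeR 4.0.16 (R 4.3.3; filterByExpr, TMM, robust quasi-likelihood fit of 4 group means), 17849 genes were tested, and a Benjamini-Hochberg adjusted p under 0.01 over all of them made a call. Each SE was the absolute log2 fold change divided by the square root of the F statistic of the edgeR test. The likeness search used log2 CPM (prior count 2). Alternatives comprised DESeq2 1.42.0, limma 3.58.1 (voom, the test of the authors), other scalings, filters and thresholds, the groups compared alone, a replicate block and each library left out. Canonical transcript lengths were added after seeing the data. The steps were tested on simulated data. A first criterion for the number of changed genes recovered was not met and was replaced, after that result was seen, by unbiased fold changes, few false calls and correct signs, and a later split showed that the genes missed were mostly of low count. A gene that did not pass the test may therefore still have changed. The genes and lists were chosen with earlier results of these data known. Named besides the 10 were, per list, the 2 genes of smallest adjusted p for each inhibitor, all divergent neighbours and the 10 most similar genes, of which 1 is not reported here, with *GMNN* and *DCN* named after their values were seen.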

Additional observations from a re-analysis of the deposited data

Results flagged for a closer look

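All 10 licensing genes were called lower for the NVR label than for ML355, by the edgeR test of the difference of effects. They are listed for that reason. Of all genes tested, 17.3% were called lower by this test and 16.8% higher. The 2 effects differ in agent, DMSO group and side of the split, which cannot be told apart. The difference in log2 fold change, NVR label minus ML355, was -2.86 for *MCM10*, -2.65 for *CDT1*, -2.30 for *MCM2*, -2.24 for *ORC1* and -1.94 for *MCM5*. It was -1.71 for *MCM4*, -1.68 for *MCM6*, -1.66 for *MCM7*, -1.62 for *CDC6* and -0.97 for *MCM3*. For *CDT1* the effects had opposite directions, and for *ORC1* the ML355 effect did not pass the test. For the other 8 genes both log2 fold changes were below 0 and the one of the NVR label was the larger. Groups of 3 are too small for a check of outlying samples.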

How the results depend on the processing

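The 10 calls for the NVR label were made under every alternative, and so were those for the difference of effects, except that *MCM3* (-0.97) missed a required change of 1 on the log2 scale. That requirement left 0 licensing genes lower after ML355 and 0 lower in OV-L1-FGGY than in OV-CTRL. Of the genes higher in OV-L1-FGGY, it dropped *MCM4* (0.58) and *CDC6* (0.89). Without 1 library, 5 to 8 were lower after ML355 and 0 to 1 lower in OV-L1-FGGY. *CDT1*, not called between the lines in DMSO (0.07), had log2 fold changes of 0.00 with no filter and -0.03 with at least 10 counts in every library, and -0.03 (without OV-CTRL replicate 3) to 0.19 without 1 library; the cause was not tested. Scaling by library size alone moved the median of all genes by -0.13 for ML355 and -0.15 for the NVR label, and no call of the 10 genes changed direction with it.

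The replicate numbers did not pair the samples, with correlations of deviations across genes from -0.0521 to -0.0258 for ML355 and -0.354 to 0.170 for the NVR label. With the replicate as a block, 7 licensing genes were lower after ML355 and 10 under the NVR label, as without it.

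Counts of the other lists after ML355 were less stable. With the block, 0 mitosis genes were lower, and 1 helicase activation gene and 1 E2F list gene were higher. Helicase activation had 1 higher gene also with library size alone, no filter or only the groups compared, and the E2F list 1 with library size alone or at least 10 counts. Replication fork had 5 higher genes with only the groups compared or at an adjusted p under 0.05, where 4 other licensing and 7 turnover genes were lower. A required change of 1 left 0 other licensing, 2 helicase activation, 0 turnover, 5 E2F list, 5 replication fork and 0 mitosis genes lower, and 0, 1, 1, 1, 1 and 3 higher. Under the NVR label it left 5 other licensing, 5 turnover and 9 mitosis genes lower and 0 other licensing genes higher. That last count was also 0 with library size alone or only the groups compared, and the E2F list had 1 higher gene at an adjusted p under 0.05. Without 1 library, the lower genes after ML355 numbered 0 to 2 for mitosis (0 without OV-L1-FGGY in DMSO replicate 1 or 3 or ML355 replicate 3), 1 to 4 for turnover (1 without OV-L1-FGGY in DMSO replicate 1) and 0 to 3 for other licensing (0 without ML355 replicate 2). The higher ones numbered 1 to 2 for helicase activation and for the E2F list, and under the NVR label 0 to 1 for other licensing and 1 to 2 for replication fork. The median of other licensing genes after ML355 (0.02) lay between -0.11 and 0.06.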
